A study of Mus musculus with 14 samples.

Results

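The comparison described here sets RNA from the anterior cingulate cortex of AKR/J (AKR) mice after observational fear, labelled OFL, against RNA from naive AKR mice. It takes 3 OFL libraries and 4 naive libraries, 7 of the 14 libraries in the series, chosen by the strain and condition in their titles and joined on gene identifiers. The other 7 libraries are from C57BL/6NJ (B6N) mice with the same numbers per condition, and they enter the fit for the spread and for the test of whether the change in AKR differs from the change in B6N. In observational fear a mouse watches another mouse receive foot shocks. The labels give no age, no sex and no time between the procedure and tissue collection, and no genetic modification or drug for any group. They do not say that libraries of a group are separate animals, so a p-value here covers only how far libraries of 1 group spread, and that spread may be technical.

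The cingulate cortex is known for its part in pain, attention and the response to the distress of others. It holds glutamatergic projection neurons and several kinds of GABAergic interneurons, among them cells that release the peptide somatostatin. Neuronal firing is known to switch on immediate early genes such as Fos within minutes, glucocorticoids released in stress act through a nuclear receptor on a set of target genes, and chaperones of the endoplasmic reticulum rise when protein folding is strained.

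All OFL libraries stand in one count matrix and all naive libraries in another, so condition and set of libraries cannot be told apart, and each difference below is one between the sets. The labels name the TruSeq RNA Sample Prep Kit v2 for all libraries, but RNA classes, opposite-strand genes and GC content differ between the sets in both strains, as given below. Whether the sets were prepared and counted alike was not tested, and this limit holds for each difference printed. Total counts were 19073921 to 23782061 in the naive AKR libraries and 13487311 to 14396289 in the OFL libraries. Levels are in CPM, a gene's count relative to its library's total, after scaling by trimmed mean of M values (TMM), and a gene is called at an adjusted p under 0.05 in edgeR's quasi-likelihood test over 20291 genes. Of these, 15968 were called (78.7%), 8085 higher after OFL (39.8%) and 7883 lower (38.8%). At least 2-fold higher were 4123 genes (20.3%) and at least 2-fold lower 2321 (11.4%). With so large a share called, sizes are given beside each call. The 2 AKR groups did not overlap in 38.9% of genes in the higher direction and in 37.8% in the lower direction.

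The largest differences lay in RNA classes. Replication-dependent histone genes, whose messages end in a stem-loop in place of a poly(A) tail, made up 0.00306% ± 0.000163 of counts in naive libraries (SD, n = 4) and 0.0344% ± 0.00140 after OFL (SD, n = 3), 11.2-fold more. Of 47 tested, 45 were higher and 2 lower, with a median log2 difference of 5.67 against -0.01 over all tested genes. With the 8 histone genes that had no count in any naive library set at their lower bound (3 counts over the group), the median was 5.30. Those 8 passed the expression filter through other groups alone, so they could not come out lower. The genes of the class are near-identical copies, so counts of single members are uncertain.

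The stem-loop sequence is shown because it is the feature that the class shares and that most other coding genes lack. The motif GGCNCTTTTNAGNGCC, searched in the sense strand of annotated transcripts, was found in 40 of 65 histone genes (61.5%) and in the longest transcript of 5 of 21787 other protein-coding genes (0.0229%). Capitals mark the match, each sequence is 30 bases of a GENCODE M21 transcript on build GRCm38, and the genes lie at chr13:23581598-23582735 (plus strand), chr13:23620629-23622558 (minus strand) and chr13:23738808-23740367 (plus strand) in the order shown.
Hist1h4d: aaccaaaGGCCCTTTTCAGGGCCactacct
Hist1h1e: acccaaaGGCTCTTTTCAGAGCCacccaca
Hist1h1c: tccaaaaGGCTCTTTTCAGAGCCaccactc
Hist1h4d, a core histone H4 gene, had 0, 0.0424, 0.155 and 0.216 CPM in the naive libraries and 44.8, 44.6 and 44.8 CPM after OFL (log2 difference 8.66, SE 0.16). Hist1h1e, a linker histone gene, went from a mean of 0.585 ± 0.564 to 29.3 ± 1.93 CPM (log2 difference 5.67, SE 0.21). Hist1h1c, another linker histone gene, had 6.15, 8.14, 7.56 and 7.22 CPM in naive libraries and 21.7, 22.0 and 19.8 CPM after OFL. Its log2 difference of 1.54 was the smallest of these 3, and the naive libraries already held several CPM of it. Among tested histone genes 29 of 30 with the match and 16 of 17 without it rose. No match can be found where an annotated transcript stops before the stem-loop, so a missing match need not mean a missing stem-loop. These counts therefore cannot show whether the stem-loop parts higher from lower, and 40 of 65 may be too low. The 2 histone genes that fell were Hist2h2be, at 6.35 ± 0.753 CPM in naive and 4.53 ± 0.542 CPM in OFL libraries, and Hist2h3c2, a gene with the match that stayed under 1 CPM in every library. The groups overlapped for Hist2h3c2, and its call (-1.02, adjusted p = 0.0389) was lost without naive library 1, 3 or 4, without OFL library 2 or 3 (-0.59 without library 3), and under 3 other settings.

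Small nucleolar RNAs, short RNAs that guide chemical marks on ribosomal and spliceosomal RNA, showed a like pattern. Their share of counts was 0.00555% ± 0.000271 in naive and 0.0480% ± 0.00143 in OFL libraries, 8.65-fold more. Of 152 tested, 133 were higher and 5 lower, with a median log2 difference of 4.99, or 4.12 with the 52 genes absent from all naive libraries at their bound. Those 52 passed the expression filter through other groups alone, so they could not come out lower. The count matrices list 1558 small nucleolar RNAs, and most had too few counts to be tested. Members with the boxes that define the C/D family are printed, since these boxes bind the proteins of the guide particle. Capitals mark the first TGATGA (box C) and the last CTGA (box D) on the sense strand, from GENCODE M21 transcripts on GRCm38 at chr12:109682994-109683068 (plus strand) and chr2:144265979-144266216 (minus strand).
Gm25856: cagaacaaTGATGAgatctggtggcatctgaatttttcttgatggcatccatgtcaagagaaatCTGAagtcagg
Snord17: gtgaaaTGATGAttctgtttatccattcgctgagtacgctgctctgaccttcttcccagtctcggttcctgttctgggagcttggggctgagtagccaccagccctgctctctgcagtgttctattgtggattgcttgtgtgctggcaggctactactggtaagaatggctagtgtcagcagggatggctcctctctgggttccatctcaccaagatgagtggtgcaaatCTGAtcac
Gm25856 had no count in the 4 naive libraries and 4.6, 4.11 and 4.0 CPM after OFL, at least 122-fold higher against a floor of 3 counts over the naive group. Snord17 had 0.197, 0.254, 0.259 and 0.173 CPM in naive libraries and 11, 11.9 and 11.6 CPM after OFL (log2 difference 5.67, SE 0.21). Scarna6, a small RNA of the Cajal body, was at 0.253 ± 0.0645 CPM in naive and 17.4 ± 1.30 CPM in OFL libraries. None of these 3 overlapped between the groups.

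Several other RNAs made or kept in the nucleus were higher too. Rn7sk, the RNA polymerase III transcript that holds back the elongation factor P-TEFb, had 1.82, 1.40, 3.47 and 2.21 CPM in naive libraries and 829, 808 and 941 CPM after OFL. It was 383-fold more of the counts, and its log2 difference was 8.62 (SE 0.10). Of 15 listed polymerase III and small nuclear RNAs only 7 were tested. All 7 rose, with a median log2 difference of 7.25, or 6.28 with the 2 members absent from naive libraries at their bound. Those 2 passed the expression filter through other groups alone. The listed members not tested had few counts over all 14 libraries, from 0 for Rmrp to 44 for Vaultrc5. Rnu12, the small nuclear RNA of the minor spliceosome, had 1 count over the naive group and 166 over the OFL group, a ratio of 345 after scaling with a 95% counting interval of 61.0 to 13694. Of 13 nuclear long noncoding RNAs 8 rose and 4 fell (median 0.62), beside 973 higher and 629 lower of all 2282 long noncoding RNAs tested. Malat1, a long noncoding RNA of nuclear speckles, held 0.10% ± 0.00616 of naive counts and 0.812% ± 0.0167 of OFL counts, 8.13-fold more. Kcnq1ot1, an imprinted nuclear transcript, went from 24.7 ± 3.12 to 697 ± 25.5 CPM (log2 difference 4.82, SE 0.06). Meg3, an imprinted long noncoding RNA that neurons express strongly, fell from 4749 ± 337 to 2427 ± 113 CPM, while Rian from the same imprinted locus rose from 632 ± 40.4 to 1074 ± 49.8 CPM.

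**Figure D1:**
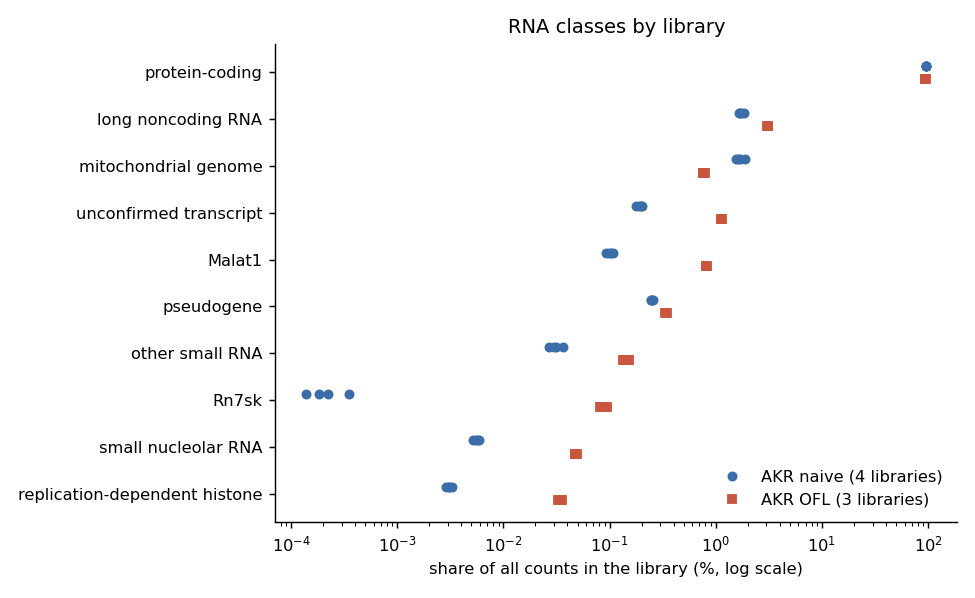
Share of all counts (percent, log axis) held by each RNA class, and by Malat1 and Rn7sk, in each AKR library; circles are naive libraries and squares OFL libraries. In every class shown the groups do not overlap, and the widest gaps are those of Rn7sk, histone genes, small nucleolar RNAs and Malat1.

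Transcripts of the mitochondrial genome were fewer after OFL, at 1.68% ± 0.149 of counts in naive and 0.765% ± 0.0177 in OFL libraries. Of 18 tested, 12 were lower and 5 higher (median log2 difference -1.83). mt-Nd6, the 1 coding gene on the light strand, had 457, 379, 398 and 393 CPM in naive libraries and 5.78, 5.15 and 4.88 CPM after OFL (log2 difference -6.27, SE 0.10). mt-Nd5, a heavy-strand gene beside it, fell from 2103 ± 197 to 178 ± 16.3 CPM, and mt-Nd2 from 1709 ± 159 to 90.0 ± 6.68 CPM. mt-Rnr2, the large ribosomal RNA, went the other way, from 1537 ± 158 to 2829 ± 155 CPM (log2 difference 0.88). The class as a whole thus did not move as 1 unit. Over counts of genes that share no exonic base with another gene, its share was 0.78% in naive and 0.571% in OFL libraries. That set leaves out mt-Nd5 and mt-Nd6, so this smaller fall is one over other genes of the class.

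Strand, GC content and length moved with the difference. In 116 tested genes, opposite-strand exons cover 80% or more of the exonic sequence. Their median log2 difference was 6.45 in AKR (6.6 in B6N), or 4.64 in AKR with the 70 genes absent from naive libraries at their bound. Those 70 passed the expression filter through other groups alone, so they could not come out lower in AKR. A930015D03Rik, a long noncoding RNA of this kind, had no count in naive AKR libraries and 6.75, 7.59 and 6.77 CPM after OFL. The sources used here do not say whether reads were assigned by strand, so reads of such a gene and of its partner cannot be told apart. Of 9569 protein-coding genes that share no exonic base with another gene, called overlap-free below, 77.2% were called, 27.8% higher and 49.4% lower, with a median log2 difference of -0.21. At least 2-fold higher were 6.05% and at least 2-fold lower 11.8%. A fit of these genes alone, with its own scaling, moved their median from -0.21 to -0.03, so small negative log2 differences can turn positive with the scaling. For a gene list this overlap-free fit also drops the members that share exonic bases with another gene, so a list median moves with both choices.

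In 5 bins of GC content the median of overlap-free genes went from 0.39 in the lowest to -0.75 in the highest, and in 5 bins of transcript length from -0.55 in the shortest to 0.35 in the longest. In the highest GC bin 31.1% of genes fell at least 2-fold, against 1.94% in the lowest. B6N medians in the same bins ran from 0.40 to -0.76 and from -0.53 to 0.33, and the difference between the strains had medians from -0.02 to 0.03 across the bins. The part of GC content, length and strand in the gene results below was not tested. Beside the median of a list of coding genes a second value is therefore given after subtracting, gene by gene, the median of overlap-free genes of like length and GC content (25 cells of 176 to 642 genes). This alternative was added after the data had been seen.

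**Figure D2:**
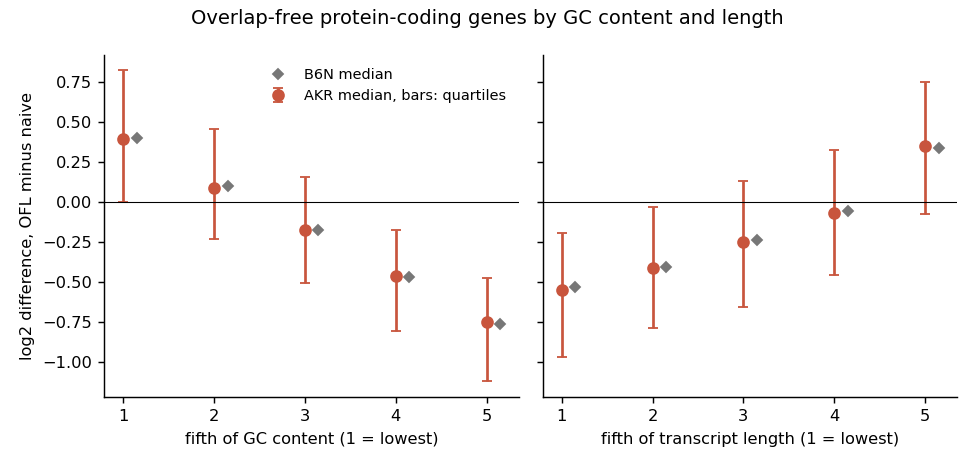
Median log2 difference (OFL minus naive) of overlap-free protein-coding genes in 5 bins of GC content (left) and of transcript length (right); circles are AKR with bars from the lower to the upper quartile, diamonds are B6N. AKR medians fall from 0.39 to -0.75 with GC content and climb from -0.55 to 0.35 with length, and the B6N medians lie almost on them.

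Among overlap-free coding genes at 5 CPM or more on average, the 10 largest rises in AKR held large adhesion and scaffold genes and odorant receptor genes. Csmd3, a very large membrane protein linked to dendrite growth, had 37.9, 34.3, 36.6 and 38.5 CPM in naive libraries and 197, 197 and 202 CPM after OFL (log2 difference 2.43, SE 0.05). Fat3, an atypical cadherin that shapes neurites, rose from 144 ± 9.49 to 746 ± 12.8 CPM, and Ahnak, a giant scaffold protein, from 36.4 ± 4.05 to 212 ± 4.80 CPM. Mgat4c, a glycosyltransferase gene, went from 6.42 ± 1.06 to 35.9 ± 2.51 CPM, and Sgcd, which encodes a sarcoglycan, from 2.25 ± 0.151 to 14.9 ± 3.14 CPM. Olfr986 and Olfr1385, odorant receptor genes, had log2 differences of 2.83 and 2.90. No overlap between the groups was a condition of this choice, so it is no result. The mean of 5 CPM was taken over both AKR groups, and Sgcd and Olfr1385 (3.43 CPM in naive libraries, 25.4 CPM after OFL) passed it through their OFL level. The largest falls below were chosen under the same conditions.

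The largest falls were of another kind. Klhl34, a kelch-family gene, had 71.4, 72.2, 65.3 and 65.6 CPM in naive libraries and 0.0742, 0.139 and 0 CPM after OFL, with 5930 counts in the naive group and 3 in the OFL group, a ratio of 952 with a 95% counting interval of 326 to 4618. Il4, which encodes the cytokine interleukin 4, had 9.40, 9.45, 8.86 and 8.48 CPM in naive libraries and no count after OFL, at least 125-fold lower against a floor of 3 counts over the OFL group. Hipk4, a kinase gene known from testis, fell from 79.2 ± 3.05 to 0.387 ± 0.122 CPM, Pter, a phosphotriesterase-related gene, from 144 ± 3.16 to 2.2 ± 0.662 CPM, and Prrt1, which encodes a protein that binds AMPA receptors, from 139 ± 8.15 to 18.3 ± 1.17 CPM. Lars2, the mitochondrial leucyl-tRNA synthetase, fell from 197 ± 35.7 to 18.8 ± 1.57 CPM.

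Of the 10 largest falls, 8 had a tested gene on the opposite strand within 5000 bases, none of the 10 largest rises had one, and 34.4% of all 9569 overlap-free genes did. Il4 lies 1015 bases from Kif3a, a kinesin motor gene expressed in neurons, which had 152 ± 2.7 CPM in naive and 148 ± 3.11 CPM in OFL libraries and was not called (but 0.15, adjusted p = 0.0012, in the overlap-free fit). Klhl34 lies 1067 bases from Cnksr2, a synaptic scaffold gene, which rose from 303 ± 9.72 to 576 ± 4.40 CPM. Pter lies 2 bases from C1ql3, a secreted synaptic organiser, which rose from 54.9 ± 2.22 to 169 ± 16.4 CPM, and Hipk4 lies 825 bases from Pld3, a lysosomal gene that fell from 673 ± 28.2 to 345 ± 2.31 CPM. These 4 neighbours thus moved up, down or not beyond the test, while Il4, Klhl34, Hipk4 and Pter kept under 3 CPM in each OFL library. Prrt1, another of the 8, kept 18.7, 16.9 and 19.1 CPM.

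Sst, the somatostatin gene, was lower after OFL. It had 164, 171, 153 and 168 CPM in naive libraries and 66.4, 64.7 and 70.5 CPM after OFL, a log2 difference of -1.29 (SE 0.05, adjusted p = 2.84e-19). The groups were far apart, and B6N showed -1.38, with no difference between the strains beyond the test (0.10, SE 0.06, adjusted p = 0.479). Against overlap-free genes of like length and GC content, Sst was lower by a log2 difference of -0.41. The 120 bases before its start site are shown because they hold a cAMP response element, the sequence through which activity-driven CREB is known to act on Sst. The sequence is from RefSeq promoters (GRCm38.p6, minus strand, window chr16:23890795-23891094), and capitals mark the element TGACGTCA, 48 bases before the start site.
Sst: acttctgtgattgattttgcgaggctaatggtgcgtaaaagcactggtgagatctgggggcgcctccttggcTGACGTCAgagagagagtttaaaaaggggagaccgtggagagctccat
Both strands read the same for this palindrome, and it was found in 588 of 32851 promoter windows (1.79%) and in 2 of 13 neuropeptide genes with a window, Sst and Cartpt.

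Neuropeptide genes as a list mostly fell. Of 16 tested, Sst among them, 13 were lower and 1 higher, beside 49.4% lower and 27.8% higher over all overlap-free coding genes. At least 2-fold lower were 6 of the 16, Sst included, and the median log2 difference was -0.76, or -0.35 against genes of like length and GC content. Pnoc, the precursor of nociceptin, fell from 9.05 ± 0.857 to 2.65 ± 0.272 CPM, and Tac2, which encodes neurokinin B, from 9.85 ± 0.0959 to 3.76 ± 0.240 CPM. Npy, the neuropeptide Y gene that many somatostatin cells share, fell from 47.9 ± 1.42 to 29.0 ± 2.15 CPM. Cck, the cholecystokinin gene, fell from 267 ± 20.9 to 179 ± 13.4 CPM. Cartpt, the other gene with the element, fell from 1.76 ± 0.221 to 0.840 ± 0.323 CPM. Vip, the vasoactive intestinal peptide gene, fell least of those named (51.6 ± 2.91 to 43.1 ± 1.95 CPM), and its call was lost in the overlap-free fit (-0.08, adjusted p = 0.235).

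Arnt2, the basic helix-loop-helix PAS factor in the series title, which partners NPAS4 at activity-regulated enhancers, was lower. Its levels were 721, 704, 690 and 685 CPM in naive and 558, 540 and 550 CPM in OFL libraries, a log2 difference of -0.35 (SE 0.03, adjusted p = 5.27e-10) with no overlap. The median over all overlap-free coding genes was -0.21, with quartiles of -0.65 and 0.26. Against overlap-free genes of like length and GC content Arnt2 stood at -0.22. The change in B6N was -0.46, not different by the test (0.11, SE 0.05, adjusted p = 0.229). Nrxn3, a presynaptic adhesion molecule, rose from 212, 221, 230 and 220 CPM to 502, 458 and 485 CPM (log2 difference 1.13, SE 0.04, or 0.67 against genes of like length and GC content). Cacna1c, the pore of the L-type calcium channel CaV1.2, rose from 113, 121, 120 and 115 CPM to 187, 175 and 199 CPM (log2 difference 0.67, SE 0.05, or 0.49 against genes of like length and GC content). For Cacna1c the change in AKR was larger than the change of 0.37 in B6N, by 0.31 (SE 0.07, adjusted p = 0.00937). PAS factors as a list moved in both directions: of 14 tested, 6 rose and 7 fell (median -0.05, or -0.13 against genes of like length and GC content). The shares over all overlap-free coding genes were 27.8% higher and 49.4% lower. Npas1, an interneuron repressor, fell from 30.8 ± 1.92 to 12 ± 1.04 CPM, and Hif1a, the hypoxia sensor, rose from 67.9 ± 0.741 to 105 ± 1.76 CPM.

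**Figure D3:**
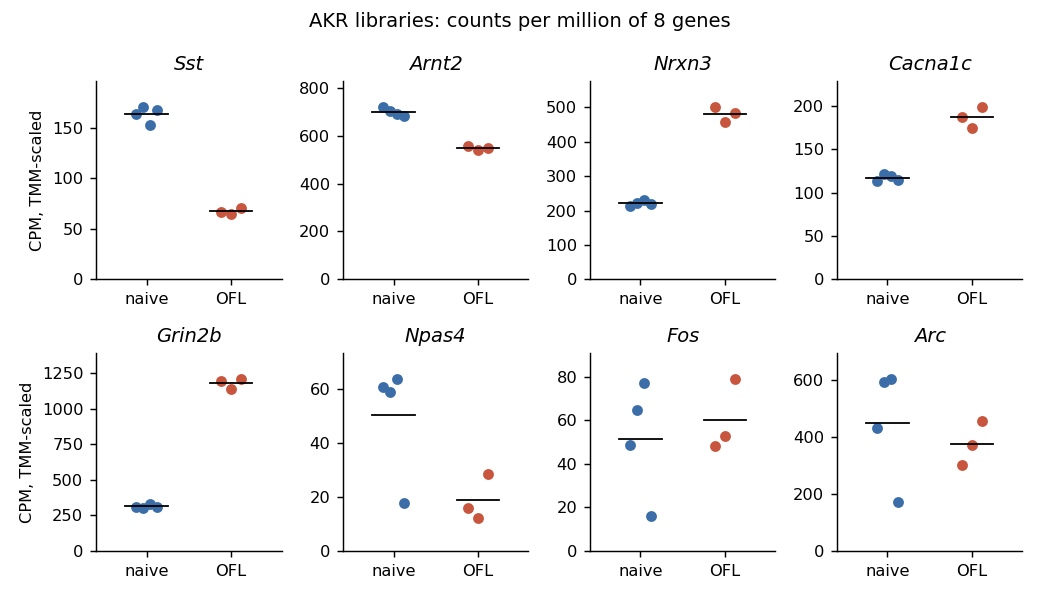
CPM (TMM-scaled, axes from 0) of 8 genes in the 4 naive and 3 OFL AKR libraries; each point is a library and each line a group mean. Sst and Arnt2 are lower and Nrxn3, Cacna1c and Grin2b higher in every OFL library, while Npas4, Fos and Arc overlap between groups and have 1 naive library well under the others.

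Immediate early genes did not rise as a group. Of 25 tested, 3 rose and 10 fell, 6 of them at least 2-fold, with a median log2 difference of -0.26, which became 0.38 against genes of like length and GC content. Over all overlap-free coding genes 27.8% rose and 49.4% fell, and 11.8% fell at least 2-fold. The list median was -0.08 over the 21 overlap-free members and 0.10 over them in the overlap-free fit. Fos had 48.8, 64.6, 77.0 and 16.0 CPM in naive libraries and 48.3, 52.9 and 79.1 CPM after OFL, with an estimated difference of 0.23 (SE 0.26, adjusted p = 0.430). Without naive library 4 that estimate was -0.08, and with no filter it was 0.20 and called (adjusted p = 0.00138). Npas4, the activity factor that pairs with ARNT2, had 60.7, 59.2, 64.0 and 17.7 CPM in naive and 16.0, 12.2 and 28.7 CPM in OFL libraries and fell (-1.41, SE 0.29, adjusted p = 8.9e-05). Arc, whose protein trims AMPA receptors from synapses, had 431, 593, 603 and 170 CPM against 301, 370 and 456 CPM, and was called only without naive library 4 (-0.53, adjusted p = 0.000365), under the replicate block or with no filter. Naive library 4 was thus the lowest naive library for all 3 genes.

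Egr1, a zinc finger factor induced by firing, fell from 433 ± 144 to 194 ± 8.70 CPM with no overlap. Ier2, another fast response gene, fell from 16.0 ± 6.03 to 4.66 ± 2.23 CPM, and Dusp1, a phosphatase that ends MAP kinase signals, from 56.3 ± 19.3 to 23.2 ± 8.23 CPM. Nr4a3, a nuclear receptor of the same response, rose from 50.7 ± 12.4 to 78.6 ± 7.80 CPM. Of 18 late response genes, 9 rose and 4 fell (median 0.21, or 0.15 against genes of like length and GC content). The shares over all overlap-free coding genes were 27.8% higher and 49.4% lower. Homer1, a postsynaptic scaffold with an activity-induced short form, rose from 302, 279, 250 and 223 CPM to 729, 826 and 721 CPM (log2 difference 1.53), more than in B6N by 0.51 (SE 0.11, adjusted p = 0.00387). Vgf, a secreted peptide precursor, fell from 339 ± 31.2 to 182 ± 7.61 CPM.

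Some stress-related genes changed differently in AKR and B6N. The difference between the changes in the 2 strains was called for 1044 of 20291 genes (5.15%), 732 with the larger value in AKR (3.61%) and 312 with the smaller (1.54%). Of 18 glucocorticoid induced genes, 8 had a larger value in AKR and none a smaller one, with a median difference of 0.35 against 0.01 over all tested genes. Within AKR, 7 of the 18 rose and 8 fell, with a median of -0.13, or 0.37 against genes of like length and GC content, while the B6N median was -0.72. The shares over all overlap-free coding genes in AKR were 27.8% higher and 49.4% lower. Over the 15 overlap-free members of the list the AKR median was -0.16, and 0.02 in the overlap-free fit. The comparison between strains uses the same pair of library sets on both sides. Whether the sets acted alike on both strains was not tested. A difference between the changes can come from the naive level, the OFL level or both.

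Plin4, a lipid droplet coat gene, showed the largest difference in that list. It had 7.68, 8.82, 9.95 and 9.47 CPM in naive AKR libraries and 24.9, 24.7 and 18.5 CPM after OFL, a log2 difference of 1.34 (SE 0.15) against -0.92 in B6N, which differ by 2.26 (SE 0.20, adjusted p = 2.4e-08). Tsc22d3, the glucocorticoid-induced leucine zipper GILZ, rose from 61.0, 61.9, 59.8 and 63.1 CPM to 94.6, 108 and 87.3 CPM in AKR (0.65), against -0.45 in B6N, a difference of 1.11 (SE 0.09, adjusted p = 6.45e-09). Both genes were higher in every OFL library of AKR than in any naive one. Fkbp5, a cochaperone that curbs glucocorticoid receptor signalling, had 33.2 ± 1.90 CPM in naive and 29.6 ± 1.85 CPM in OFL libraries and was not called in AKR (-0.16, adjusted p = 0.0903), while B6N showed -1.11, a difference of 0.95 (SE 0.12, adjusted p = 9.75e-06). In AKR, Fkbp5 was called lower with AKR libraries alone (-0.15, adjusted p = 0.0427) and with no filter (-0.19, adjusted p = 0.0097), and stood at 0.02 in the overlap-free fit. Zbtb16, a zinc finger factor induced by steroid hormones, rose from 86.4 ± 3.58 to 143 ± 4.39 CPM and by 0.43 more than in B6N. Cdkn1a, the cell cycle inhibitor p21, fell in AKR (25.3 ± 3.44 to 8.97 ± 1.13 CPM), but by less than in B6N (difference 0.97). Nr3c1, the glucocorticoid receptor itself, rose from 111 ± 3.29 to 186 ± 14.4 CPM, by less than in B6N (difference -0.24, adjusted p = 0.0319), a call lost without naive library 3 or 4 or OFL library 1 or 3 and in the overlap-free fit (-0.21, adjusted p = 0.057).

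Chaperones showed the same tilt. Of 22 endoplasmic reticulum and heat shock chaperones, 11 had a larger value in AKR than in B6N and none a smaller one (median difference 0.37). Of all tested genes 3.61% had a larger and 1.54% a smaller value. In AKR 9 rose and 6 fell, with a median of 0.09 that became -0.06 without OFL library 2 and 0.24 against genes of like length and GC content, beside a B6N median of -0.34. The shares over all overlap-free coding genes in AKR were 27.8% higher and 49.4% lower. Hspa5, the chief chaperone BiP, had 224, 226, 207 and 209 CPM in naive AKR libraries and 232, 316 and 230 CPM after OFL (0.26, SE 0.09, adjusted p = 0.0123), with library 2 well above the other OFL libraries. Without that library the difference in AKR was 0.09 (adjusted p = 0.346). The value in B6N was -0.59, and the strains differed by 0.86 (SE 0.13, adjusted p = 0.000135). Pdia4, a disulfide isomerase, rose from 28.2 ± 1.35 to 46.0 ± 7.01 CPM and by 0.77 more than in B6N, and Manf, a secreted stress-responsive factor, rose from 25.2 ± 1.83 to 38.3 ± 5.51 CPM and by 0.76 more. Sdf2l1, a cofactor of BiP, had 8.22 ± 0.345 CPM in naive and 8.82 ± 2.31 CPM in OFL libraries of AKR, not called (0.11, and -0.12 without OFL library 2), against -1.11 in B6N. B6N means of Sdf2l1 were 16.7 CPM in naive and 7.77 CPM in OFL libraries, so the strains lay further apart in naive libraries. Hsp90b1, the reticulum's HSP90, rose from 148 ± 8.21 to 258 ± 19.2 CPM. Hsp90ab1, the cytosolic form, fell from 1192 ± 37.8 to 739 ± 5.94 CPM, so the list did not move as 1 in AKR.

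**Figure D4:**
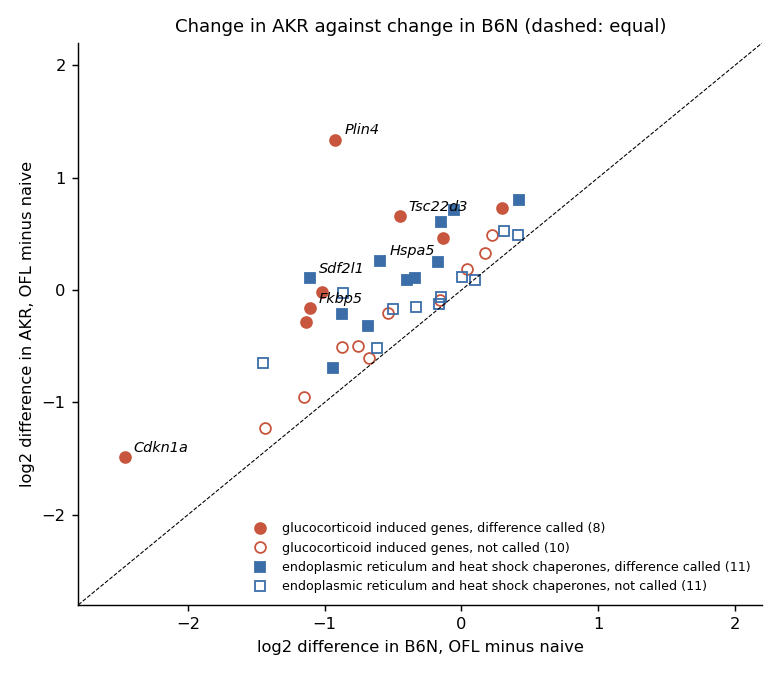
Log2 difference (OFL minus naive) in AKR (vertical) against B6N (horizontal) for each tested gene of the glucocorticoid list (circles) and the chaperone list (squares), filled where the difference between strains is called; the dashed line marks equal change. The 8 and 11 filled points lie above the line, with Plin4 at 1.34 in AKR and -0.92 in B6N.

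Outside these lists the named genes with the largest differences between strains had varied roles. H2-T24, a nonclassical MHC class I gene, had 5.84 ± 0.356 CPM in naive and 5.24 ± 0.713 CPM in OFL libraries of AKR (-0.15, not called, and 0.03 in the overlap-free fit) against -2.60 in B6N, a difference of 2.45 (SE 0.18). B6N means of H2-T24 were 14.7 CPM in naive and 2.42 CPM in OFL libraries. Its span overlaps A930015D03Rik on the opposite strand, whose fitted difference between strains was 7.17. That size is uncertain, since A930015D03Rik had no count in naive AKR libraries. Its rise in AKR was at least 202-fold against a floor of 3 counts over the naive group. Pglyrp1, a peptidoglycan recognition protein, fell in both, by less in AKR (difference 1.45). Dnah7a, an axonemal dynein gene, rose in AKR from 5.35 ± 0.543 to 10.2 ± 0.787 CPM (difference 1.24). Mfsd2a, the lipid transporter of the blood-brain barrier, fell from 32.4 ± 1.70 to 23.8 ± 1.71 CPM, by less than in B6N (-0.44 against -1.55, difference 1.11). In the other direction, Opalin, a myelin membrane gene, fell in AKR from 7.22 ± 0.848 to 4.51 ± 0.646 CPM (-0.68), against 0.44 in B6N (difference -1.12, SE 0.25, adjusted p = 0.00624), and Lmbr1, a membrane protein gene, rose by less in AKR (difference -1.11). Lmbr1 means were 37.9 CPM in naive AKR and 17.9 CPM in naive B6N libraries, and 51.3 and 52.3 CPM after OFL. Core clock genes moved both ways in AKR, with 7 of 16 higher and 8 lower (median -0.05, or 0.20 against genes of like length and GC content). Over the 9 overlap-free clock genes the median was 0.17, and 0.35 in the overlap-free fit. Of 11 hypoxia response genes 5 rose and 5 fell (median -0.05, or 0.28 against genes of like length and GC content). Beside the clock and hypoxia lists stand 27.8% higher and 49.4% lower over all overlap-free coding genes. Nr1d1, the clock repressor REV-ERB alpha, fell from 153 ± 12.7 to 49.3 ± 6.41 CPM, and Clock, the activator, rose from 107 ± 5.30 to 202 ± 11.8 CPM. The labels give no time of day.

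Cell type genes tell which tissue the libraries hold. Genes of cortical excitatory and inhibitory neurons, astrocytes, oligodendrocytes, microglia and vessels were detected in all 7 libraries. Choroid plexus and ependyma genes summed to 6.79 to 9.22 CPM in naive and 6.82 to 8.88 CPM in OFL libraries, and Ttr, the defining choroid plexus gene, was at 0.624 ± 0.410 and 0.0950 ± 0.0823 CPM. Striatal genes summed to 132 to 148 and 99.7 to 108 CPM. Blood genes summed to 18.9 to 33.2 CPM in naive and 35.2 to 46.3 CPM in OFL libraries, with 3 of 5 higher. Meningeal fibroblast genes summed to 98.4 to 167 CPM in naive and 94.0 to 116 CPM in OFL libraries. The Y-linked genes Uty and Ddx3y had counts in every AKR library. The part of these other tissues in the gene results was not tested.

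Most cell type lists had more falls than rises, and so did overlap-free coding genes as a whole (27.8% higher, 49.4% lower). In bulk tissue, fewer cells of a type and less RNA per cell cannot be told apart. Of 16 pan-glutamatergic genes 4 rose and 10 fell (median -0.49, or -0.18 against genes of like length and GC content). Nrgn, which binds calmodulin at synapses, had 857, 920, 819 and 855 CPM in naive and 206, 213 and 226 CPM in OFL libraries (-2.01). Camk2a, the synaptic kinase, fell from 2833 ± 116 to 1261 ± 89.9 CPM, and Slc17a7, the vesicular glutamate transporter, from 1365 ± 80.7 to 736 ± 29.0 CPM. Chn1, a Rac regulator, rose from 417 ± 12.5 to 861 ± 43.5 CPM. Of 17 pan-GABAergic genes 4 rose and 11 fell (median -0.32, or -0.31 against genes of like length and GC content). Slc32a1, which loads GABA into vesicles, fell from 82.6 ± 8.52 to 32.0 ± 0.834 CPM, while Gad1 and Gad2, which make GABA, fell by less (-0.30 and -0.32), and Erbb4, the neuregulin receptor, rose from 114 ± 6.92 to 233 ± 10.5 CPM. Members of the same cell type list thus went opposite ways.

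Interneuron subtypes were alike in this. Over all overlap-free coding genes 27.8% rose and 49.4% fell. Of 17 somatostatin interneuron genes 5 rose and 8 fell, near those shares (median -0.17, or -0.30 against genes of like length and GC content). Elfn1, a postsynaptic organiser of somatostatin cells, fell from 50.2 ± 3.63 to 19.3 ± 2.0 CPM, and Reln, a secreted matrix protein of many interneurons, rose from 99.8 ± 1.30 to 211 ± 9.03 CPM. Of 12 parvalbumin interneuron genes 4 rose and 6 fell (median -0.32, or -0.06 against genes of like length and GC content). Pvalb itself had 45.8, 43.1, 38.6 and 41.7 CPM in naive and 37.2, 38.5 and 30.8 CPM in OFL libraries (-0.25, adjusted p = 0.0280), a call lost without OFL library 3, without naive library 1 or 2, and under 3 other settings. Of 12 VIP interneuron genes 1 rose and 9 fell (median -0.56, or -0.26 against genes of like length and GC content). Of 9 LAMP5 and NDNF interneuron genes 3 rose and 5 fell (median -0.55, or -0.35 against genes of like length and GC content). Lamp5 fell from 236 ± 12.3 to 97.7 ± 13.6 CPM.

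Glial and vascular lists leaned downward, as did overlap-free coding genes as a whole (27.8% higher, 49.4% lower). Of 17 astrocyte genes 1 rose and 13 fell (median -0.34, or -0.02 against genes of like length and GC content). Gfap, the intermediate filament, fell from 119 ± 8.71 to 60.2 ± 2.93 CPM, while Slc1a2, the main glutamate transporter, rose from 2142 ± 175 to 3208 ± 57.4 CPM. Of 16 oligodendrocyte genes 1 rose and 11 fell (median -0.62, or -0.11 against genes of like length and GC content, with -0.15 in B6N). A smaller value in AKR than in B6N was called for 4 of the 16, beside 1.54% of all tested genes. Sox10, the lineage factor, fell from 26.6 ± 1.51 to 8.28 ± 0.681 CPM, and Mbp, a myelin protein, from 803 ± 53.4 to 491 ± 54.2 CPM. Of 18 microglia genes 2 rose and 15 fell (median -0.50, or -0.17 against genes of like length and GC content), with C1qb, a complement subunit, falling from 17.8 ± 1.29 to 7.49 ± 0.946 CPM. Of 16 endothelial genes 1 rose and 11 fell (median -0.41, or -0.21 against genes of like length and GC content). Of 13 interferon response genes 1 rose and 8 fell (median -0.65, or -0.49 against genes of like length and GC content). Stat2, which carries the interferon signal, fell from 46.9 ± 2.42 to 26.2 ± 1.29 CPM.

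Receptors, channels and adhesion molecules had more rises than falls in most lists, beside 27.8% higher and 49.4% lower over all overlap-free coding genes. Of 17 ionotropic glutamate receptor subunits 10 rose and 4 fell, 4 and 1 at least 2-fold (median 0.25, or 0.04 against genes of like length and GC content). Grin2a, an NMDA receptor subunit of mature synapses, had 199, 185, 193 and 192 CPM in naive libraries and 759, 755 and 704 CPM after OFL (log2 difference 1.94, SE 0.04). Grin2b, the subunit that dominates early in life, went from 312, 302, 332 and 307 to 1195, 1138 and 1214 CPM (1.92), by 0.39 more than in B6N (SE 0.06, adjusted p = 8.66e-05). Grin2d, an interneuron subunit, fell from 30.0 ± 1.69 to 11.3 ± 1.45 CPM. Of 7 metabotropic receptors 5 rose and 2 fell (median 1.02, or 0.27 against genes of like length and GC content). Grm3 rose from 67.1 ± 2.15 to 193 ± 9.93 CPM and its close relative Grm2 fell from 126 ± 6.51 to 52.6 ± 6.41 CPM. Of 12 GABA-A receptor subunits 7 rose and 3 fell (median 0.22, but -0.06 against genes of like length and GC content). These lists also hold members that share exonic bases with other genes. Over overlap-free members alone the medians were 0.25 for ionotropic (7 genes), 0.65 for metabotropic (4 genes) and 0.07 for GABA-A genes (8 genes).

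Of 18 neurexins, neuroligins and partners 15 rose and 3 fell, 8 and 1 at least 2-fold (median 0.85, or 0.68 against genes of like length and GC content). Only 7 of the 18 were overlap-free, and their median was 0.48. Nlgn1, the neuroligin of excitatory synapses, rose from 86.2 ± 4.51 to 280 ± 9.82 CPM, and Nlgn2, that of inhibitory synapses, fell from 427 ± 17.8 to 201 ± 16.4 CPM. Nrxn2, a neurexin, fell from 446 ± 24.9 to 313 ± 18.6 CPM. Lrrtm4, a postsynaptic neurexin partner, rose from 12.5 ± 0.788 to 62.4 ± 4.03 CPM. Related genes of 1 family thus parted in direction, and the B6N values had the same signs (-0.73 for Nrxn2, 1.78 for Nlgn1 and -1.21 for Nlgn2).

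Of 22 sodium and potassium channel genes 18 rose and 3 fell (median 0.70, or 0.35 against genes of like length and GC content, and 0.67 over the 15 overlap-free members). Scn2a, a sodium channel of pyramidal axons, rose from 406 ± 17.7 to 974 ± 29.8 CPM, and Kcna4, a fast-inactivating potassium channel, from 21.5 ± 1.19 to 65.0 ± 1.06 CPM. Of 8 calcium channel pores 5 rose and 2 fell (median 0.42, or 0.46 against genes of like length and GC content, and 0.46 over the 5 overlap-free members). A larger value in AKR than in B6N was called for 3 of the 8, beside 3.61% of all tested genes. Of 28 monoamine, opioid and peptide receptors 10 rose and 12 fell (median -0.15, but 0.22 against genes of like length and GC content, and -0.23 over the 24 overlap-free members). Oprm1, the mu opioid receptor, rose from 1.49 ± 0.173 to 5.08 ± 0.339 CPM, and Htr2a, a serotonin receptor of pyramidal cells, from 46.2 ± 1.44 to 73.8 ± 2.19 CPM.

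**Figure D5:**
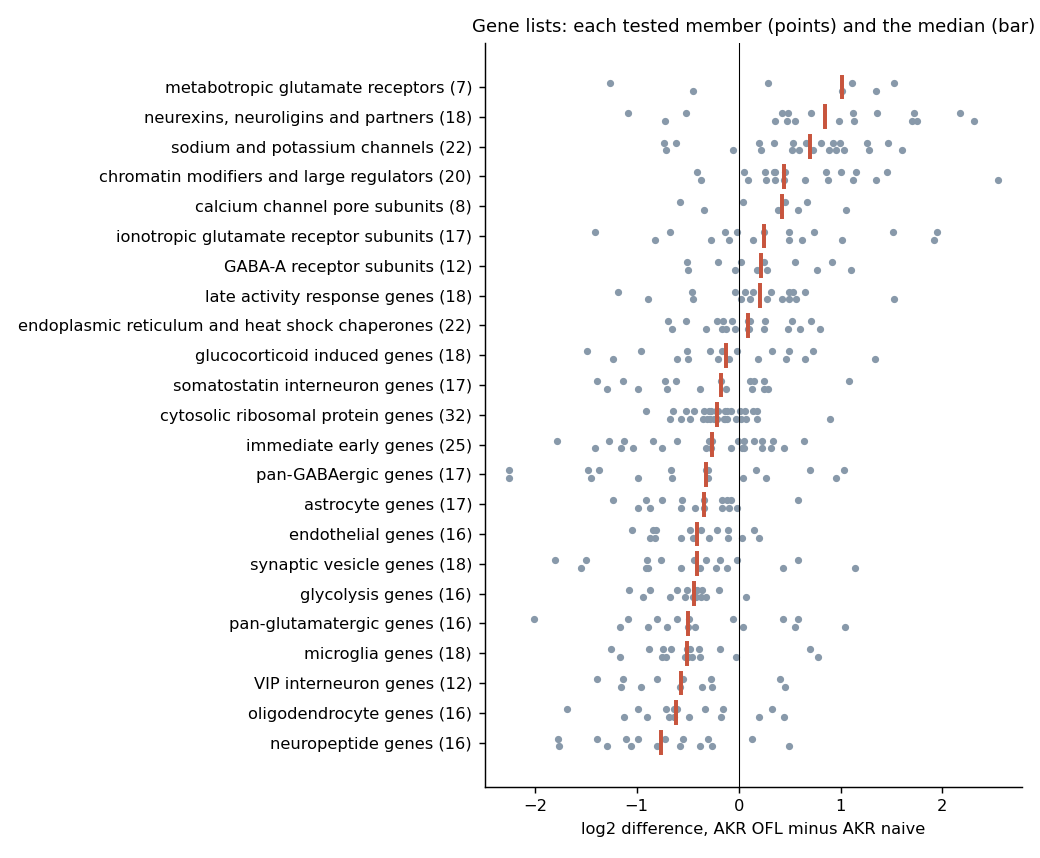
Log2 difference (AKR OFL minus AKR naive) of each tested member (points, with the number of members in brackets) and the median (bar) for 23 gene lists, ordered by the median. Medians run from -0.76 for neuropeptide genes to 1.02 for metabotropic glutamate receptors, and each list shown has members on both sides of 0.

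Genes of the presynaptic vesicle and of energy metabolism were mostly lower, beside 27.8% higher and 49.4% lower over all overlap-free coding genes. Of 18 synaptic vesicle genes 3 rose and 14 fell (median -0.41, or -0.10 against genes of like length and GC content). Vamp2, the vesicle SNARE, had 906, 958, 915 and 917 CPM in naive and 281, 239 and 274 CPM in OFL libraries (-1.81, SE 0.05). Syn1, which tethers vesicles, fell from 784 ± 42.2 to 277 ± 24.1 CPM, while Pclo, the giant active zone scaffold Piccolo, rose from 383 ± 22.7 to 844 ± 35.1 CPM. Of 16 glycolysis genes none rose and 15 fell (median -0.44, but 0.10 against genes of like length and GC content). Gapdh fell from 859 ± 27.6 to 469 ± 17.5 CPM. Of 24 nuclear respiratory chain genes 2 rose and 15 fell (median -0.17, but 0.14 against genes of like length and GC content), and of 32 cytosolic ribosomal protein genes 4 rose and 22 fell (median -0.21, but 0.26 against genes of like length and GC content; over the 16 overlap-free members -0.16, and 0.02 in the overlap-free fit). Of 20 chromatin modifiers and large regulators 16 rose and 2 fell (median 0.45, or 0.48 against genes of like length and GC content). Macf1, a giant cytoskeletal linker, rose from 521 ± 25.4 to 1432 ± 9.87 CPM, and Kmt2c, a histone methyltransferase, from 123 ± 5.19 to 314 ± 2.53 CPM.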

How the data were processed

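Total RNA of 14 cingulate cortex libraries was prepared with one kit, per the labels' protocols. The submitters' processing notes list, with no roles, build GRCm38, TopHat2 2.1.1, HTSeq, cutadapt 2.7, CASAVA and edgeR. Whether reads were counted by strand is not given in the sources used here. The deposited matrices hold read counts per gene, and the authors' per-library files hold CPM; counts recovered from those CPM equal the matrices. Of 53465 identifiers, 53360 were named through GENCODE M21.

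Counts were fitted in edgeR 4.0.16 (R 4.3.3) with TMM scaling, the default expression filter and 1 quasi-likelihood model of 14 libraries in 4 groups (common biological coefficient of variation 0.045), with Benjamini-Hochberg adjustment over all tested genes. Printed CPM are TMM-scaled, ± is an SD (n = 4 naive, n = 3 OFL), and log2 differences are OFL minus naive. Tested on simulated data for the AKR comparison (19462 genes, 200 changed), the fit recovered 100% of 2-fold and 87% of 1.5-fold changes, with 7.43% of calls false; for the difference between strains it recovered 97% and 77%, with 4.40% false. The fit's performance with a share of genes changed as large as the 78.7% called in the AKR comparison was not tested. Replicate pairs differed beyond counting noise (chi-square per degree of freedom 1.93 to 5.10). Counting intervals and floors cover counting error only.

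The comparison and gene lists were chosen with earlier results of these data known. Named genes are Arnt2, Sst, Nrxn3 and Cacna1c, the 10 largest rises and falls among named overlap-free coding genes at a mean of 5 CPM or more with no overlap between groups (histones left out), the largest differences in each other RNA class and between strains, and up to 4 called members of each list with the smallest p; 85 of the 117 follow that rule and the others were chosen after their values were seen. Alternatives were other scalings, filters, DESeq2 1.42.0, thinning, the replicate block and leaving out each library.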

Additional observations from a re-analysis of the deposited data

Results flagged for a closer look

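In 7 genes, 1 naive AKR library stood apart from the other 3 by more than Dixon's 95% limit for groups of 4, of 127 groups tested; chance alone marks about 1 group in 20. Npas4 was at 17.7 CPM in naive library 4 against 59.2 to 64.0 CPM in the others. Erbb4 was low in naive library 2, at 104 CPM against 117 to 119 CPM. The other marked libraries were high. Library 1 had 3010 CPM of Camk2a (others 2760 to 2790), 692 CPM of Rian (605 to 617) and 0.0492 CPM of Rnu12, a single count where the others had none. Library 2 had 8.48 CPM of Opalin (6.62 to 6.89), and library 3 had 432 CPM of Scn2a (395 to 400).

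For 33 named genes the change in AKR differed from the change in B6N in edgeR's test of the difference itself. Larger values in AKR, as log2 differences between the strains' changes, were found for the hormone and stress genes Plin4 (2.26), Sdf2l1 (1.21), Tsc22d3 (1.11), Cdkn1a (0.97), Fkbp5 (0.95), Hspa5 (0.86), Pdia4 (0.77), Manf (0.76), Zbtb16 (0.43), Hsp90b1 (0.38) and Hsp90ab1 (0.24). Among neuronal genes they were found for Homer1 (0.51), Prrt1 (0.49), Grin2b (0.39), Fat3 (0.38), Cacna1c (0.31), Csmd3 (0.26) and Pclo (0.21). The large scaffold and chromatin genes Ahnak (0.50), Kmt2c (0.25) and Macf1 (0.20) also had larger values in AKR, as did the transcripts Rn7sk (0.68), Hist1h1c (0.39) and mt-Rnr2 (0.35). A930015D03Rik (7.17), H2-T24 (2.45), Pglyrp1 (1.45), Dnah7a (1.24) and Mfsd2a (1.11) complete that direction. The size for A930015D03Rik is as fitted and uncertain, since that gene had no count in naive AKR libraries. Smaller values in AKR were found for Opalin (-1.12), Lmbr1 (-1.11), Uty (-0.38) and Nr3c1 (-0.24). Leaving out 1 of the AKR libraries ended the call for Pclo (any but naive 3 and OFL 2), Hist1h1c (naive 1, 3 or 4, OFL 1 or 2), Rn7sk (naive 1, 2 or 4), Csmd3 (naive 2, OFL 1 or 3), Macf1 (naive 4, OFL 1), mt-Rnr2 (OFL 3) and Nr3c1 (naive 3 or 4, OFL 1 or 3). Other settings ended it too: the replicate block (adjusted p = 0.0517), upper-quartile scaling (0.0519), no filter (0.0596) and DESeq2 (0.0636) for Hist1h1c, upper-quartile scaling for Pclo (0.0557), DESeq2 for mt-Rnr2 (0.0977), thinning to equal depth for Rn7sk (0.227) and the overlap-free fit for Nr3c1 (0.057), each an adjusted p.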

How the results depend on the processing

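Condition and set of libraries cannot be told apart under any setting. Leaving out 1 AKR library gave 15551 to 15835 calls (7871 to 8051 higher, 7605 to 7828 lower), 6297 to 6781 at least 2-fold (4030 to 4298 higher, 2251 to 2496 lower) and 771 to 1023 differences between strains (549 to 727 with the larger value in AKR, 208 to 299 with the smaller). Replicate numbers do not pair the libraries (correlations of same-number deviations 0.023, -0.018 and 0.011 over 12380 genes, and not every library correlated best with its own number); with the replicate block 15766 genes were called, 7999 higher and 7767 lower. A fit of overlap-free coding genes only, which tests fewer genes, gave 7110 calls (3494 higher, 3616 lower), 1588 at least 2-fold (823 and 765) and 647 differences between strains (133 with the smaller value in AKR). Of 6288 genes called in both, 6280 had the same direction; under every other setting all shared calls did. Some values changed sign; except as said for the overlap-free fit, the cause was not tested. In that fit, which rescales and drops overlapping list members, these were Fkbp5 (0.02), H2-T24 (0.03), Kif3a (0.15) and the medians of clock (0.35), parvalbumin (0.15), immediate early (0.10), upper layer (0.08), ribosomal protein (0.02), glucocorticoid (0.02) and deep layer genes (-0.02). Over the same overlap-free members before rescaling, values added after the data had been seen, clock genes were at 0.17, parvalbumin at -0.03, deep layer at -0.20 and upper layer at -0.10. Against genes of like length and GC content the medians that turned, glycolysis (from -0.44) and the corticosteroid axis (from -0.41) among them, were those of immediate early (0.38), glucocorticoid (0.37), choroid plexus (0.28), hypoxia (0.28), ribosomal protein (0.26), monoamine receptor (0.22), clock (0.20), respiratory chain (0.14), glycolysis (0.10), corticosteroid axis (0.06), pericyte (0.06) and GABA-A genes (-0.06). Upper-quartile scaling turned Kif3a (0.02) and clock genes (0.01), DESeq2 Kif3a (0.01), thinning Kif3a (0.00) and choroid plexus genes (0.03), and the latter were at 0.50 both with AKR libraries alone and with a 1 CPM filter. Leaving out OFL library 2 turned Sdf2l1 (-0.12) and the chaperone (-0.06), hypoxia (0.06) and choroid plexus medians (0.19), OFL library 3 Fos (-0.02), naive library 4 Fos (-0.08) and naive library 1 the hypoxia median (0.04). Over all single libraries left out, Fos reached 0.47 and Sdf2l1 0.26, the chaperone median 0.12, and the hypoxia and choroid plexus medians -0.19 and -0.61.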
